A study of Mus musculus with 30 samples.

Results

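Expression in the adult mouse heart was compared with that in 14 other adult tissues. Of the 30 arrays of the series, 2 carried heart RNA, picked by the tissue named in their titles, and the other 28 carried 2 arrays each of skeletal muscle, bone, skin, fat, liver, kidney, bladder, lung, stomach, eyes, cerebellum, brain cortex, and the small and the large intestine. All tissues came from male C57BL/6 mice, aged 28 weeks according to the labels, while the methods state another age. No treatment or genetic change is named for any group. Replicates were taken from different animals, except that the series description names a single replication for bone and fat, so the spread between the arrays of those tissues may be technical. Each array held tissue RNA in Cy3 and a common reference in Cy5, a commercial pool of mouse cell line RNA mixed with embryonic stem cell RNA. A value is log2(Cy3/Cy5), the ratio of a probe's signal in the tissue to that in the reference, and a difference is the heart mean minus the mean of the other 14 tissues on this log2 scale. Whole pieces of organ were used, so that a larger share of a cell type and more RNA per cell cannot be told apart.

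The heart muscle contracts without rest and draws most of its ATP from the oxidation of fatty acids in densely packed mitochondria. Its contractile unit, the sarcomere, is built from thick and thin filaments that are anchored at the Z-disc, and many of its proteins have one isoform for heart and others for skeletal muscle. Beta-adrenergic receptors, adenylyl cyclase and the sarcolemmal ion channels and transporters set the rate and force of the beat. The genes of these systems are described below in that order, followed by the genes that were low in heart.

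The heart arrays were close to each other (r = 0.9913 over 21,019 probes, given as a description) and had a median SD of 0.069. Between 56.0% and 59.0% of probes on them were well above background. They shared slide and scan day with the liver arrays, and the scan day, but not the slide, with arrays of brain cortex, cerebellum, eyes, lung, kidney and bladder. Skeletal muscle was hybridised on other slides and scanned on another day, so that a difference between heart and muscle cannot be told apart from one between slides or days. For the slide, the same holds against every other tissue but liver. Both heart arrays were on the same slide, so that their closeness cannot be told apart from a shared slide. With the slide as a random block, the correlation between arrays of a slide was 0.693, which the main fit does not model. Of the other tissues, skeletal muscle was most like heart (r = 0.785 over tissue means), followed by bone (0.676) and fat (0.607), and small intestine was least like it (0.413). Fat replicate 1 was nearer to a bladder array, and large intestine replicate 1 nearer to a small intestine array, than to their own replicates, and leaving either out moved no count of probes called against all tissues by over 1.5 times.

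Of 21,019 probes tested, 2,035 were higher in heart than in the mean of the other tissues (9.68%) and 1,926 were lower (9.16%), at an adjusted p under 0.05 in limma (Benjamini-Hochberg) with a difference of at least 1 in log2. The difference was at least 2, or 4-fold, for 632 higher probes (3.01%) and 420 lower ones (2.00%). The balance of higher and lower calls depended on the scaling, with 968 and 1,089 at least 4-fold calls from the processed signals, 991 and 1,028 from the value table, and 1,452 higher and 1,983 lower calls in all under median centring of each array. Both heart arrays lay above all 28 other arrays for 876 probes (4.17%) and below all of them for 159 (0.757%). Among the probes called higher, 732 (36.0%) had both heart arrays above every other array, and among those called lower, 98 (5.09%) had both below every other. The genes that set heart apart by being the lowest of 15 tissues were thus few, and 631 of the lower probes (32.8%) were not well above background on either heart array. For 941 of the higher probes heart was the first of the 15 tissues, and the second was skeletal muscle for 340 of them (36.1%), kidney for 116 (12.3%), bone for 84 (8.93%), lung for 78 (8.29%) and liver for 72 (7.65%).

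Symbols were at hand for 24.0% of the tested probes, from the study's own probe lists, giving 5,047 genes of which 484 were called higher (9.59%) and 308 lower (6.10%). These names are not an even sample of the genome, since 19.9% of the named genes with a known chromosome lie on chromosome 1 against 5.96% of all genes. The label of the tissue was checked on cardiac muscle markers, of which 4 of 19 had a named probe. These were Tnnt2, cardiac troponin T, Actn2, the Z-disc alpha-actinin of heart and skeletal muscle, Fhl2, a LIM domain protein of the sarcomere, and Adrb1, the main beta-adrenergic receptor of heart muscle, and all 4 were higher in heart. They do not all set heart apart, since lung (5.96) was above heart for Adrb1 and skin (4.79) was close to it for Actn2. The genes named below are the 25 with the largest difference among those with both heart arrays above all others, the 15 with the most negative difference, the 5 most like Fhl2 over tissues and called members of gene lists. List members that were not called are named beside them for contrast, chosen after their values were seen.

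**Figure D1:**
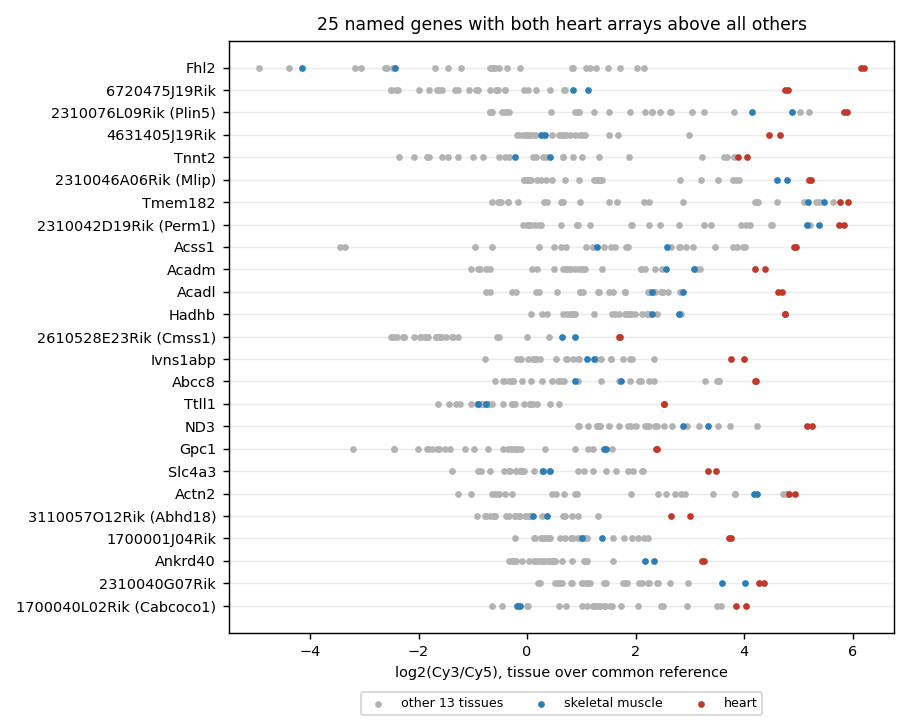
Log2(Cy3/Cy5) of the 25 named genes with the largest difference among those with both heart arrays above every other array, 1 point per array for heart (red, 2 arrays), skeletal muscle (blue, 2 arrays) and the other 13 tissues (grey, 26 arrays). The heart points of Fhl2 sit at 6.21 and 6.16 with no other array above 2.15, whereas those of Actn2, at 4.82 and 4.93, lie just above an array at 4.79.

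Contractile and Z-disc genes split into some that heart shared with skeletal muscle, a few that were lower in muscle, and some that were low in heart and high in muscle. Of the 14 named genes of the sarcomere and Z-disc, 8 were higher in heart (57.1%, against 9.59% of all named genes) and 1 was lower, and the median difference of the list was 1.27 against -0.06 over all named genes. The largest difference was that of Fhl2, which binds titin. Its ratio was 6.21 and 6.16 on the heart arrays, and on the others it ran from -4.94 through a median of -0.64 to 2.15. Both heart arrays were far above all others, the next tissue being stomach (2.09), and the difference was 7.08 with an SE of 0.37 (limma adjusted p = 5.5e-11). In skeletal muscle Fhl2 was among the lowest values, at a mean of -3.28. Tnnt2, the troponin T of the heart, was at 3.89 and 4.06 in heart and ran from -2.36 through 0.14 to 3.81 elsewhere (difference 3.75, SE 0.34, limma adjusted p = 6.6e-08). Bladder (3.66) and lung (3.52) came close behind heart for Tnnt2, while skeletal muscle was at 0.10. Actn2 was at 4.82 and 4.93 in heart and between -1.27 and 4.79 elsewhere, with a median of 2.16 (difference 3.02, SE 0.40, limma adjusted p = 6.2e-06). Skin (4.79), bone (4.74) and skeletal muscle (4.21) were close to heart for Actn2, and heart and muscle did not differ past the threshold (difference 0.67, limma adjusted p = 0.47).

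Other members were as high in skeletal muscle as in heart. Cavin4 (2310039E09Rik in the study's list), a coat protein of muscle caveolae, was at 5.22 and 5.24 in heart and ran from -2.75 through -1.64 to 5.53 elsewhere (difference 5.63, SE 0.35), with skeletal muscle at 5.46. Ankrd23, a muscle ankyrin repeat protein that binds titin, was at 6.32 and 6.29, and bone (7.21) and muscle (6.58) were above heart (difference 4.40, SE 0.19). Speg, a kinase of striated muscle, was at 3.54 and 3.65 with muscle at 4.40, and Des, the muscle intermediate filament desmin, at 2.81 and 2.88 with bone at 3.16 and muscle at 3.09. The call of Des was lost under median centring of each array, at 0.99. For Cavin4, Ankrd23, Speg and Des the heart values thus lay within the range of the other arrays. Isoforms of skeletal fibres behaved otherwise. Actn3, the alpha-actinin of fast fibres, was at -2.90 and -2.76 in heart and reached 5.52 elsewhere, and was lower in heart than in muscle by a difference of -7.72 (limma adjusted p = 3.8e-08). Against the 7 tissues of the heart's scan day, which leave out skeletal muscle, Actn3 differed by -0.74 and was not called, and its call was also lost with the slide as a random block. Mybph, a myosin-binding protein of fast fibres, was not well above background on either heart array and was at 5.05 in muscle. Tnni1, the slow skeletal troponin I, differed from muscle by -3.49. Neither Mybph nor Tnni1 was called against the mean of all tissues.

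Genes of muscle nuclei, membranes and metabolism that the list did not hold were among the 25 as well. Mlip (2310046A06Rik), a lamin-interacting protein of muscle, was at 5.2 and 5.23 in heart and between -0.06 and 4.78 elsewhere, with a median of 1.09 (difference 3.74, SE 0.19). Tmem182, a muscle membrane protein, was at 5.76 and 5.92 with bone at 5.48 and muscle at 5.33. Perm1 (2310042D19Rik), a regulator of mitochondrial genes in muscle, was at 5.75 and 5.83 and ran from -0.08 through 1.93 to 5.38 elsewhere (difference 3.64, SE 0.31). In these 3 genes skeletal muscle was close behind heart and differed from heart by no more than 0.52. A further set was high in heart and far lower in muscle. Among it, 6720475J19Rik, for which no name beyond the clone identifier was found, was at 4.76 and 4.81 with no other array above 1.13. Ttll1, a subunit of a tubulin polyglutamylase, was at 2.53 and 2.52 with none above 0.58, and Ivns1abp, a kelch protein, at 3.99 and 3.76 with none above 2.34. Ttll1 was also 3.36 higher than in muscle (limma adjusted p = 1.3e-08) and Ivns1abp 2.71 higher (0.00012). Gpc1, a glypican that carries heparan sulfate, was at 2.38 and 2.39 against a highest value of 1.56 elsewhere, and muscle was second at 1.44, which did not differ from heart past the threshold (difference 0.94).

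The pattern of Fhl2 over the 15 tissue means was compared with that of every named gene, as a description without a test. The 5 genes most like it were Tomm5 (1110019J04Rik), a subunit of the outer membrane import channel of mitochondria (r = 0.805), Acss1, the mitochondrial acetyl-CoA synthetase (0.760), Pam, the peptide-amidating enzyme abundant in atria (0.756), Uqcrh of respiratory complex III (0.728) and Rflnb (1500005K14Rik), a filamin-binding protein (0.672). Heart was first of 15 tissues in all of these but Rflnb, where stomach (3.65) was above heart (2.80 and 2.69).

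Promoters of Fhl2 and Tnnt2, from the contractile list, and of Mlip, which is not in it, are shown so that their letters can be read beside the values. Those of Cavin4 and Ankrd23, which had larger differences than Tnnt2, are not printed. Each printed window is the 250 bases before an annotated start in RefSeq (GRCm38.p6), read on the gene's own strand. Fhl2 has starts at chr1:43196762-43197011 (minus strand, first line) and chr1:43163962-43164211 (minus strand, second line), Tnnt2 is shown at chr1:135836084-135836333 (plus strand) and Mlip at chr9:77347871-77348120 (minus strand). Tnnt2 and Mlip each have a further start in the table, whose window is not printed. Capitals mark matches on either strand to 5 motifs. The M-CAT element, bound by TEAD factors, was searched as CATTCC. The site of GATA factors was searched as AGATAA. The box bound by the TATA-binding protein was searched as TATAAA. The site of MEF2 factors and the CArG box, which serum response factor binds, were searched by their usual consensus.
Fhl2 first start: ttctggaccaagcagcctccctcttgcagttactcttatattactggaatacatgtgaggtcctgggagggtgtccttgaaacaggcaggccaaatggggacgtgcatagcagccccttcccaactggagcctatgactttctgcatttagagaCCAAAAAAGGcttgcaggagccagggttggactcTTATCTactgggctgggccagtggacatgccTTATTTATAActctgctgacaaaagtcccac
Fhl2 second start: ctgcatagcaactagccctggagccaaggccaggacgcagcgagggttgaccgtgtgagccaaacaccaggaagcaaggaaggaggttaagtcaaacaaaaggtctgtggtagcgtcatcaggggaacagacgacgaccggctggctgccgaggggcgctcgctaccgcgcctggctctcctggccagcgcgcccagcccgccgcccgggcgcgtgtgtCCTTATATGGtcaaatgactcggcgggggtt
Tnnt2: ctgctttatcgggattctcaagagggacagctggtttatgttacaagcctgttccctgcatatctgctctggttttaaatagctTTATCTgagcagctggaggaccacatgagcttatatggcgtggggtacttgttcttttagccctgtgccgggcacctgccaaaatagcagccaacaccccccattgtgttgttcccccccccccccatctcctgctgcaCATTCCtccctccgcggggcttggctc
Mlip: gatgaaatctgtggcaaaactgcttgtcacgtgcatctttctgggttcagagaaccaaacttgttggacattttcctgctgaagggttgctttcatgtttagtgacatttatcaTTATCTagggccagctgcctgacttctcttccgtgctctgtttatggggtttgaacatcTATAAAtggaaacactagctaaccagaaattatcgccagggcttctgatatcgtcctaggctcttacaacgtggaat

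The first Fhl2 window holds a CArG box, a GATA site and a MEF2 site that overlaps a TATA box, the second holds a CArG box, that of Tnnt2 a GATA site and an M-CAT element, and that of Mlip a GATA site and a TATA box. At the further starts, the window of Tnnt2 holds none of the 5 motifs, and that of Mlip, which overlaps the one shown, holds an M-CAT element, 2 GATA sites and a TATA box. Among list members whose windows are not printed, Actn2 holds none of the 5 motifs and Cavin4 a TATA box. Ankrd23 holds a GATA site and an M-CAT element at separate starts. Over 27,025 genes with a promoter in the table, CATTCC was in 14.4%, AGATAA in 11.4%, TATAAA in 14.3%, the MEF2 site in 3.42% and the CArG box in 1.62%. Among 13 sarcomere and Z-disc genes with a promoter, CATTCC was in 6 (46.2%), TATAAA in 5 (38.5%), AGATAA and the MEF2 site in 3 each and the CArG box in 1. The carriers include members that were not higher in heart, namely Lmod1, Mybph and Myl1 for CATTCC and Mybph, Myl1 and Synpo2 for TATAAA. Among the 375 named genes called higher with a promoter CATTCC was in 13.6%, AGATAA in 9.07%, TATAAA in 8%, the MEF2 site in 3.73% and the CArG box in 0.8%. Among all named genes tested the shares were 12.4%, 7.58%, 8.29%, 1.98% and 1.06% in the same order. These are matches of letters, and binding was not measured.

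Genes of excitation and of calcium handling were mostly not higher in heart. Of 14 named members, 3 were higher (21.4%, against 9.59% of all named genes) and none was lower, and the median difference was 0.09. Abcc8, a regulatory subunit of ATP-sensitive potassium channels, was at 4.22 and 4.20 in heart and ran from -0.59 through 0.78 to 3.54 elsewhere (difference 3.10, SE 0.32, limma adjusted p = 4.1e-07). A pair of other probes for Abcc8, which are not in the authors' value table, gave differences of 0.18 and 0.57, so the size rests on the probe. Slc4a3, the chloride-bicarbonate exchanger of heart and brain, was at 3.34 and 3.48 and ran from -1.38 through 0.21 to 2.14 elsewhere (difference 3.04, SE 0.24, limma adjusted p = 1.2e-08). Brain cortex was second for Slc4a3 (2.13), while skeletal muscle was at 0.35. Cacna1s, the calcium channel of skeletal muscle triads, was called higher (1.38 and 1.69, difference 1.11) and yet differed from muscle by -2.86. Its call was lost when each array was centred on its median (0.77), with the slide as a random block and without heart replicate 2. Jph1, a junctophilin of skeletal muscle, differed by 0.22 from the mean of all tissues and by -3.83 from muscle. Ryr2 and other channel genes that define the cardiac action potential had no named probe and are not analysed here.

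Receptors and enzymes of adrenergic and angiotensin signalling were high in heart for a small number of members. Of 33 named genes of adrenergic, adenosine and angiotensin signalling, 8 were higher (24.2%, against 9.59% of all named genes) and 3 lower (9.09%, against 6.10%), with a median difference of -0.15. Agtr1a, the angiotensin II receptor, was at 5.38 and 5.34 in heart and ran from -1.26 through 1.05 to 5.94 elsewhere (difference 3.68, SE 0.37, limma adjusted p = 2.4e-07). Only liver was above heart for Agtr1a, at 5.78. Adrb1 was at 5.37 and 5.27 and ran from -0.12 through 1.59 to 6.03 elsewhere, with lung above heart at 5.96 (difference 3.15, SE 0.11, limma adjusted p = 4.6e-12). Skeletal muscle replicate 1 and fat replicate 1 had no value for this probe, and another Adrb1 probe outside the value table gave a difference of 0.49. Adcy5, a major adenylyl cyclase of heart muscle, was at 3.82 and 3.86 and first of 15 tissues, though a single array elsewhere reached 3.97 (difference 1.68, SE 0.33). Adra1a, the alpha-adrenergic receptor of heart muscle, was at 1.55 and 1.58 with no other array above 0.52 (difference 1.36, SE 0.11).

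In the other direction, Adra2a, the inhibitory alpha-adrenergic receptor of nerve endings, was at -0.53 and -0.30 in heart, not well above background on either array, and reached 5.52 elsewhere. Its ratio differed by -3.05 (limma adjusted p = 5.6e-06). Its Cy3 level, which was not tested, was at least 8.33-fold lower than in the other tissues. Adcy2, another adenylyl cyclase, was also not well above background in heart, with a Cy3 level at least 3.56-fold lower, while another Adcy2 probe gave a ratio difference of -0.61. Ramp1, a partner of the calcitonin-like receptor, was at 1.71 and 1.68 with a difference of -1.0 (limma adjusted p = 0.041), and its call was lost in 27 of the other settings or left-out arrays. The receptor kinases Grk2 (Adrbk1) and Grk3 (Adrbk2) differed by -0.43 and -0.15 without a call. The other higher members were Adm, the vasodilator peptide adrenomedullin (1.46), Rgs5, a regulator of G-protein signalling in pericytes (1.37), Adcy4, an adenylyl cyclase (1.33), and Agtrap, which binds the angiotensin receptor (1.05). Adcy4 had no value on cerebellum replicate 1, and another Adcy4 probe gave a difference of -0.04. Median centring of each array ended the calls of Adra1a (0.93), Adcy4 and Agtrap. Adcy4 and Agtrap also lost theirs without heart replicate 1, and Adcy4 with the processed signals and with the value table.

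**Figure D2:**
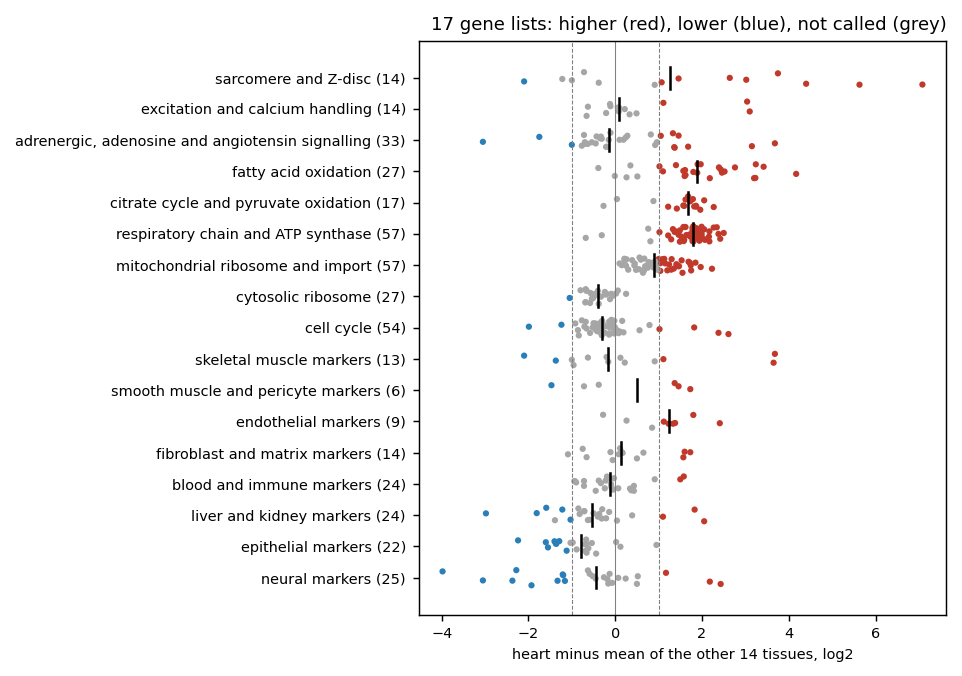
Difference of heart from the mean of the other 14 tissues (log2, horizontal axis) for each member of 17 gene lists, with the number of members in brackets, a bar at each list's median and dashed lines at the call threshold of 1 in either direction. Members of the fatty acid, citrate cycle and respiratory chain lists lie mostly right of the line, with medians of 1.89, 1.68 and 1.80, and the cytosolic ribosome list is centred on -0.40.

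Most of the measured genes of fatty acid oxidation were higher in heart. Of 27 named members, 22 were higher (81.5%, against 9.59% of all named genes), none was lower, and the median difference was 1.89. Both heart arrays exceeded every other array for 9 of them (against 5.33% of all named genes). Plin5 (2310076L09Rik), the lipid droplet protein of oxidative tissues, was at 5.84 and 5.89 in heart and ran from -0.69 through 1.71 to 5.19 elsewhere (difference 4.17, SE 0.21, limma adjusted p = 3.3e-11). Acsl1, which activates long-chain fatty acids, was at 4.96 and 4.98, just below liver at 5.24 (difference 2.76, SE 0.22). The dehydrogenases of the first step were higher at every chain length measured, with Acadvl for very long chains at 4.0 and 4.03 (difference 2.52), Acadl for long chains at 4.70 and 4.63 (3.23), Acadm for medium chains at 4.39 and 4.20 (3.24) and Acads for short chains at 2.78 and 2.89 (2.18). Acads did not stand above every other tissue, since large intestine was at 2.92. Hadhb, the beta subunit of the trifunctional protein that carries out the next 3 steps on long chains, was at 4.76 on both heart arrays and between 0.07 and 2.83 elsewhere, with a median of 1.81 (difference 3.20, SE 0.25, limma adjusted p = 9.1e-09). Hadha, its alpha subunit, was at 2.51 and 2.66 and between -0.83 and 1.80 elsewhere, with a median of 0.93 (difference 1.90, SE 0.14, limma adjusted p = 5.7e-09). Both subunits separated heart from all other arrays.

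Acss1, which makes acetyl-CoA from acetate in mitochondria, was at 4.92 and 4.96 in heart, with stomach second at 3.94 and liver the lowest (difference 3.42, SE 0.40, limma adjusted p = 1.7e-06). Another Acss1 probe outside the value table gave 2.42. Acot2, a mitochondrial acyl-CoA thioesterase, was at 2.20 and 2.28 with kidney second at 0.71 (difference 2.46). Its neighbour Acot1, whose transcript is nearly the same in sequence and may share the probe's signal, was 1.60 higher, a call that was lost with the slide as a random block and without heart replicate 2. Members that degrade branched amino acids as well, such as Ivd (1.61), Mccc1 (1.62) and Hibch (1.97), were higher too. The exceptions were Gcdh of lysine breakdown (0.51), Acsf2 (0.26), and the acyl-CoA dehydrogenase family members Acad9 (0.35), Acad8 (-0.01) and Acad10 (-0.39). Kidney and liver were the other tissues with high levels of the pathway. The median ratio over the 27 members was 2.85 in heart, 2.34 in kidney, 2.31 in liver and 1.84 in skeletal muscle, and lowest in brain cortex (0.03). Against liver, on the same slide, 7 members were higher in heart (against 14.7% of all probes) and 2, Gcdh and Acad10, lower (against 12.5%), so that the difference of heart from liver in this pathway was smaller than that from the mean of all tissues.

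The promoters of Perm1, Acadm and Hadhb are shown because estrogen-related receptors are known regulators of cardiac fatty acid oxidation. They lie at chr4:156215677-156215926 (Perm1, plus strand), chr3:153944644-153944893 (Acadm, minus strand) and chr5:30155003-30155252 (Hadhb, plus strand) in GRCm38.p6, from RefSeq. Capitals mark matches on either strand to AAGGTCA, the core that these receptors bind, which was in 4.7% of all promoters, 3.78% of those of named genes tested, 5.33% of those called higher, and in 3 of the 23 fatty acid oxidation genes with a promoter (13%), namely Abhd5, Acadm and Acsl6. Most of these genes, Plin5, Acss1 and Acadl among them, thus hold no match, and the pair of windows with one is not typical of the list.
Perm1: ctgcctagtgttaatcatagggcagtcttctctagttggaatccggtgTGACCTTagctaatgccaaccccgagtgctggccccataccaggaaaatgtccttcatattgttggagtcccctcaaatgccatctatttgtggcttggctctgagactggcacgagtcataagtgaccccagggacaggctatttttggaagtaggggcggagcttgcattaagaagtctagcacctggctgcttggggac
Acadm: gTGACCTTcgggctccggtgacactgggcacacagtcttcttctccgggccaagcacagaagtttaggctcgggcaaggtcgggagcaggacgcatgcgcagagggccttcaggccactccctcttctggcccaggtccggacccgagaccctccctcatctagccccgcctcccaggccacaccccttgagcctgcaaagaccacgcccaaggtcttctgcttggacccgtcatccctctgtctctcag
Hadhb: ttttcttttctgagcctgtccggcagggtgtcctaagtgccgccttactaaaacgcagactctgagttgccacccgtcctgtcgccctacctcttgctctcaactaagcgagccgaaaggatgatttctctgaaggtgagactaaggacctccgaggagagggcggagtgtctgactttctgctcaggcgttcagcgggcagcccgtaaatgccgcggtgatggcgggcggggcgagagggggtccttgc
Perm1 and Acadm each hold 1 such core and Hadhb holds none in this window. The window of Hadhb also leads to Hadha, since their starts lie on opposite strands at positions 30155253 and 30154980 of chromosome 5, with 272 bases between them. The pair differed from the mean of the other tissues by 3.20 and 1.90, each with its own probe.

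The citrate cycle was higher in heart at nearly every step that was measured in mitochondria. Of 17 named members, 14 were higher (82.4%, against 9.59% of all named genes) and none lower, with a median difference of 1.68, and heart exceeded all other arrays for 10 (against 5.33%). Cs, citrate synthase, was at 2.00 and 2.04 in heart and ran from -0.36 through 0.56 to 1.60 elsewhere (difference 1.42, SE 0.14). Fh1, fumarase, was at 2.50 and 2.46 with liver second at 1.93 (difference 2.05). Dld, the dehydrogenase shared by the pyruvate and oxoglutarate complexes, was at 2.44 and 2.23 (difference 2.27, SE 0.47), and Mpc2 (Brp44), a subunit of the mitochondrial pyruvate carrier, at 3.66 and 3.78 (difference 1.62). Of the 3 members that were not called, Dlst, a subunit of the mitochondrial oxoglutarate dehydrogenase complex, differed by 0.88 and the other two are cytosolic. Aco1, the cytosolic aconitase, differed by -0.27 and Idh1, the cytosolic isocitrate dehydrogenase, by 0.04, whereas Idh3a and Idh3g of the mitochondrial enzyme were 1.82 and 1.87 higher. Mdh1, the cytosolic malate dehydrogenase of the malate-aspartate shuttle, was an exception with a difference of 1.96. Csl, which is nearly identical in sequence to Cs and may share its signal, was 1.57 higher.

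The respiratory chain had the highest share of members called higher among the 17 lists. Of 57 named subunits of the chain and ATP synthase, 53 were higher in heart (93.0%, against 9.59% of all named genes) and none was lower, and both heart arrays lay above every other array for 51 of them (against 5.33%). The differences had a median of 1.80 and ranged from -0.68 to 2.50. By complex, 26 of 28 subunits of complex I were higher (median 1.85), as were 3 of 3 of complex II (1.73), 7 of 8 of complex III (1.75), 4 of 5 of complex IV (1.78) and 13 of 13 of ATP synthase (1.84). The highest was Ndufs1, the largest subunit of complex I, at 3.18 and 3.09 in heart against a range from -1.80 through 0.69 to 2.33 elsewhere (difference 2.50, SE 0.34, limma adjusted p = 8.2e-06). Cox7b of complex IV was at 3.03 and 3.0 and between -0.95 and 1.79 elsewhere (difference 2.27, SE 0.25), and Atp5c1, the rotor shaft of ATP synthase, at 2.81 and 2.79 and between -0.88 and 1.95 (difference 2.17, SE 0.21). In all 3 the heart arrays stood clear of every other array. The 4 that were not called were Uqcrfs1, the Rieske protein (0.81), Ndufab1, the mitochondrial acyl carrier protein (0.76), Ndufv3 (1500032D16Rik, -0.31) and Cox8a (-0.68). Cox8a is the general isoform of a complex IV subunit that has another isoform in striated muscle, and at -0.41 and -0.44 in heart it was 1.95 above its level in skeletal muscle (limma adjusted p = 2.7e-08).

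ND3, a subunit of complex I encoded by the mitochondrial genome and one of the 25, was at 5.15 and 5.25 in heart and ran from 0.94 through 2.08 to 4.24 elsewhere (difference 3.05, SE 0.24, limma adjusted p = 1.2e-08). Both heart arrays were above all others, and kidney was second at 3.88.

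**Figure D3:**
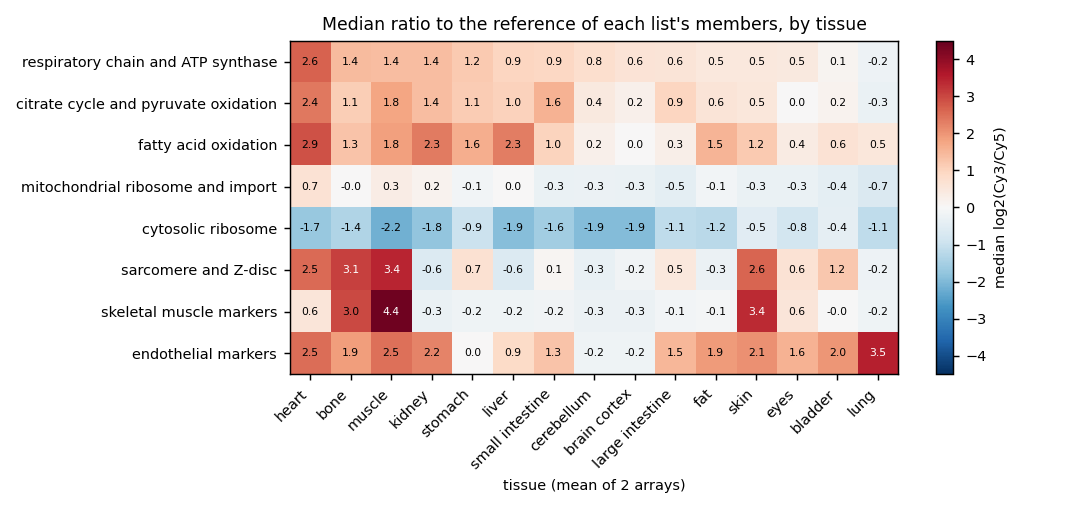
Median log2(Cy3/Cy5) over the members of 8 gene lists (rows) in each of the 15 tissues (columns, mean of 2 arrays), with tissues ordered by the respiratory chain. Heart has the highest median in the respiratory chain (2.6), citrate cycle (2.4), fatty acid oxidation (2.9) and mitochondrial ribosome (0.7) rows, but not in the sarcomere, skeletal muscle marker or endothelial rows.

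The median ratio over the 57 respiratory genes was 2.59 and 2.61 on the heart arrays and 2.64 over the gene means, followed by bone (1.43), skeletal muscle (1.39) and kidney (1.38), with lung lowest (-0.22). For the citrate cycle it was 2.39 in heart, 1.79 in skeletal muscle and -0.31 in lung. The probes for the mitochondrial ribosome, import and membrane shape went the same way with smaller differences. Of 57, 23 were higher (40.4%, against 9.59% of all named genes) and none lower (against 6.10%), all 57 had a positive difference, where 41.1% of all probes had one, and the median was 0.90. Mfn2, a mitochondrial fusion protein, was at 4.14 and 4.19 in heart with muscle second at 3.76 (difference 2.23, SE 0.21), Immt of the cristae junction was 1.97 higher and Slc25a3, the phosphate carrier, 1.85 higher. Mrpl55, of the large mitochondrial ribosomal subunit, was 1.75 higher and lay above every other array. Ribosomal proteins of the cytosol did not share this. Of 27, none was higher (against 9.59% of all named genes) and 1, Rpl41, was lower (3.7%, against 6.10%, difference -1.05, limma adjusted p = 0.00057), and the median was -0.40. The call of Rpl41 was lost without heart replicate 1, at -1.0, within the scan day and under median centring of each array.

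In promoters of these genes the palindromic site of the nuclear respiratory factor NRF1, read on both strands and with any base in its middle, was in 8 of 47 respiratory chain genes (17%) and 10 of 51 of the mitochondrial ribosome and import list (19.6%). It was in 4.23% of all promoters, but in 9.37% of those of all named genes tested and in 8.8% of those called higher in heart.

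Within the heart's own scan day, where the comparison is with 7 tissues and without skeletal muscle, bone or skin, 10.6% of 20,995 probes were higher and 12.5% lower. The respiratory chain had 54 members higher and 1, Cox8a, lower, fatty acid oxidation 21 and 0, the citrate cycle 15 and 0, and the mitochondrial ribosome and import list 28 and 0, and the sarcomere and Z-disc list 9 and 0. Against liver on the same slide, 14.7% of all probes were higher in heart, and 50 of the 57 respiratory genes, 10 of the 17 citrate cycle genes, 19 of the 57 mitochondrial ribosome and import genes, 9 of the 14 sarcomere genes and, as given above, 7 of the 27 fatty acid oxidation genes were.

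Heart and skeletal muscle were compared directly, to ask which genes separate these striated muscles. Of 21,019 probes, 1,929 were higher in heart (9.18%) and 1,266 lower (6.02%), and the median over all probes was 0.04. Centring each array on its median gave 1,036 higher and 1,313 lower, so that the balance turned. With the slide as a random block, 1,292 were higher and 924 lower. Of the 57 respiratory genes 30 were higher in heart and none lower (median 1.09), as were 15 of 27 for fatty acid oxidation (median 1.1), but 3 of 17, Pdp2, Mdh1 and Idh1, for the citrate cycle (median 0.78) and 8 of 57 for the mitochondrial ribosome and import (median 0.40). Contractile genes were divided, with 2 of 14 higher (Fhl2 and Tnnt2) and 4 lower (Actn3, Mybph, Tnni1 and Myl1). The 13 markers of skeletal muscle had a median of -3.07, 10 of them lower in heart and none higher. Mettl21c (A530098C11Rik), a methyltransferase of muscle, was at 0.14 and -0.12 in heart and at 7.87 in muscle, and Mstn, the muscle growth inhibitor myostatin, was not well above background in heart and was at 7.60 in muscle. Myog, a transcription factor of skeletal myogenesis, differed by -3.59. The list median was 0.56 in heart against 4.39 in muscle, 3.37 in skin and 2.97 in bone, while eyes were at 0.55 and the other 10 tissues between -0.29 and -0.02. The markers Tmem182 and Dusp27 were shared, being 3.68 and 3.65 higher in heart than in the mean of all tissues and within 0.69 of muscle.

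**Figure D4:**
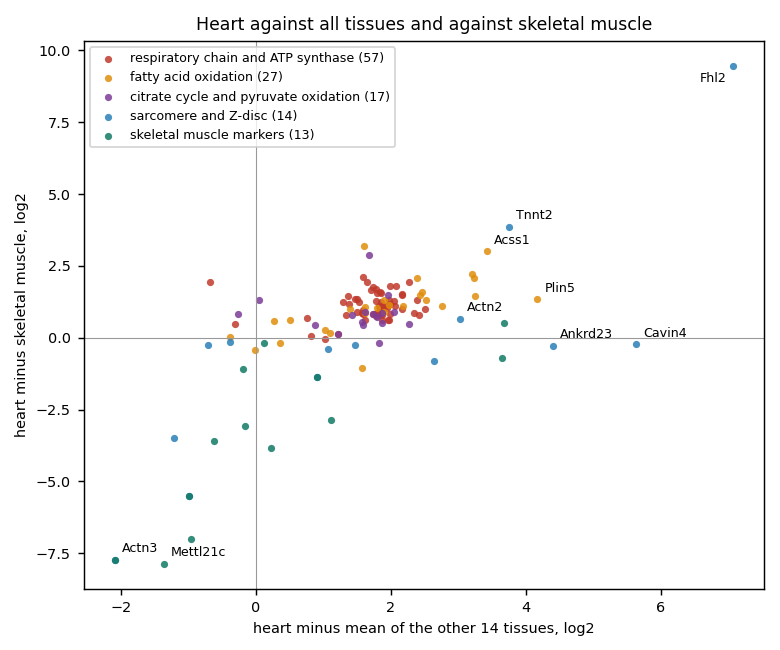
Difference of heart from the mean of the other 14 tissues (horizontal axis, log2) against its difference from skeletal muscle (vertical axis, log2) for the members of 5 gene lists, whose sizes are in brackets. Both axes use the same heart arrays. Respiratory and fatty acid genes lie to the upper right, with Fhl2 and Tnnt2 far above 0 on both axes, Ankrd23 and Cavin4 near 0 against muscle, and Actn3 and Mettl21c at -7.72 and -7.86 against muscle.

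Among the 15 named genes with the most negative difference, Ngef, a guanine nucleotide exchange factor of neurons, was at -1.63 and -1.27 in heart and ran from -1.97 through 2.97 to 5.78 elsewhere (difference -3.98, SE 0.40, limma adjusted p = 2.7e-07). Skeletal muscle was as low as heart, at -1.65, and brain cortex was the highest at 5.75. Arhgef4, another exchange factor of this kind, was at -2.50 and -2.33, the lowest mean of 15 tissues, with cortex at 5.71 (difference -3.68, SE 0.43). Sel1l3 (2310045A20Rik), a membrane protein of the endoplasmic reticulum, was the one gene of the 15 for which both heart arrays lay below all others. It was at -0.93 and -0.64 in heart against a range from -0.34 through 2.72 to 3.92 elsewhere (difference -3.20, SE 0.29, limma adjusted p = 7e-08), and skeletal muscle was high for it at 3.64. Heart and muscle thus differed by -4.42 in Sel1l3 (limma adjusted p = 1.4e-07).

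**Figure D5:**
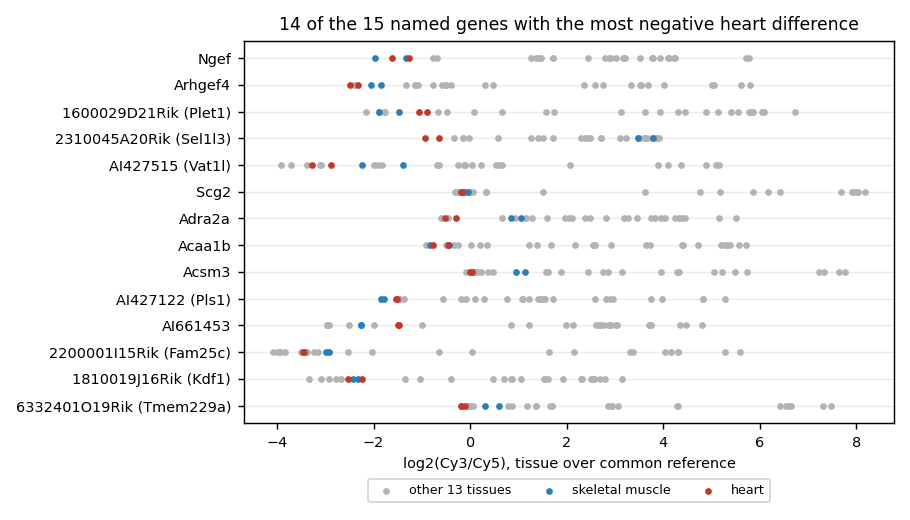
Log2(Cy3/Cy5) of 14 of the 15 named genes with the most negative difference of heart from the other tissues, 1 point per array for heart (red), skeletal muscle (blue) and the other 13 tissues (grey). Heart shares the low end with other tissues for all shown but Sel1l3, where the heart arrays at -0.93 and -0.64 are the lowest and both muscle arrays are high.

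For several of the 15, the heart signal was not well above background on either array, and a bound is given in Cy3 level, which is another scale than the ratio to the reference. The bound refers to the undetected heart signal only and was not tested. Scg2, the granule protein secretogranin of neurons and endocrine cells, was at least 7.87-fold lower in Cy3 level than in the other tissues. Acsm3, an acyl-CoA synthetase of kidney and liver, was at least 8.13-fold lower, Pls1 (AI427122), the plastin of microvilli, at least 8.85-fold and Tmem229a (6332401O19Rik) at least 6.78-fold. Their highest tissues were eyes for Scg2 (8.08), kidney for Acsm3 (7.70) and Tmem229a (7.39) and small intestine for Pls1 (5.06). Acaa1b, a peroxisomal thiolase whose sequence is close to that of Acaa1a, was at -0.45 and -0.78 with liver at 5.64 (difference -3.03, SE 0.35), in contrast to the mitochondrial thiolase Acaa2, which was 2.39 higher. Plet1 (1600029D21Rik, -3.36), Kdf1 (1810019J16Rik, -2.81), Fam25c (2200001I15Rik, -2.87) and AI661453 (-2.96) were high in eyes, large intestine, skin and stomach. Vat1l (AI427515) differed by -3.19, but another probe for it outside the value table gave -0.15.

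Markers of other cell types were read on the same scale to describe what the heart samples held. Of 9 endothelial markers 6 were higher in heart (66.7%, against 9.59% of all named genes; 3 under median centring of each array) and none lower, with a median difference of 1.23, and the list's median ratio was 2.51 in heart, 2.49 in skeletal muscle and 3.49 in lung. Afap1l1, an actin-binding protein of vessels, led with 5.22 and 5.09 (difference 2.41, SE 0.21), and lung was close behind at 5.09. Of 6 smooth muscle and pericyte markers, 3 were higher (50%, against 9.59% of all named genes) and 1 lower. Among the 3 was Des, which is also counted above with the sarcomere genes and whose call was lost under median centring of each array. The median ratio of the list was 1.59 in heart, which ranked 7 of 15 tissues, and highest in bladder (3.48). Rgs5 was at 7.47 and 7.46 (difference 1.37), and its call was lost with the scanner software's processed signals (0.97). Csrp1, of smooth muscle, was lower (-1.47). Of 14 fibroblast and matrix markers, 3 were higher (21.4%, against 9.59%), Dpt (1.73), Prrx1 (1.60) and Angptl2 (1.57), and none was lower. Of 24 blood and immune markers, 2 were higher (8.33%, near the 9.59% of all named genes) and none was lower, the higher ones being Ctla4 (1.58) and Cd28 (1.5), T-cell receptors of costimulation, while Ptprc, the marker of all leukocytes, differed by -0.03 and Zap70, a T-cell kinase, by -0.94. The part of these cells in the differences above was not tested.

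Of 22 markers of epithelia 8 were lower (36.4%, against 6.10% of all named genes) and none was higher, and the count fell to 5 under median centring and to 5 or 6 without 1 heart array. Among them were Pkp1, a plakophilin of skin, and Lct, intestinal lactase. Neither was well above background on a heart array, with Cy3 levels at least 5.63-fold and 3.61-fold lower than in the other tissues, and the call of Lct was lost without heart replicate 2. Of 25 neural markers, 9 were lower (36.0%, against 6.10% of all named genes) and 3 higher (12%, near the 9.59% of all named genes). Within the scan day, where 12.5% of all probes were lower, 4 of the 22 epithelial and 8 of the 25 neural markers were. The higher ones were Epha4, an ephrin receptor, at 2.43 and 2.53 with brain cortex above it at 4.32 (difference 2.43, SE 0.26), Nfasc, neurofascin, at 2.45 and 2.35 with kidney second at 1.01 (difference 2.18) and Phyhip (1.17). Of 24 liver and kidney markers, 5 were lower (20.8%, against 6.10% of all named genes, but 4 without heart replicate 1 and 3 without heart replicate 2) and 3 higher (12.5%, near the 9.59% of all named genes), among them Aox1, aldehyde oxidase (1.83), and Fmo1, a flavin monooxygenase (1.1), both with liver above heart. The median ratio of the neural, epithelial and liver and kidney lists in heart was 0.07, -0.10 and 0.05.

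Of 54 cell cycle genes 4 were higher (7.41%, against 9.59% of all named genes) and 2 lower (3.7%, against 6.10%). The median difference was -0.29, and it was 0.26 within the scan day. The median ratio of the list was -2.62 in heart, which ranked 7 of 15 tissues, and highest in bone (-1.02). The higher ones were led by Gmnn, geminin, an inhibitor of replication licensing, at 0.23 and 0.12 in heart against a range from -4.0 through -2.39 to -0.36 elsewhere (difference 2.61, SE 0.32, limma adjusted p = 2.6e-06). Sgo2a (Sgol2), which protects centromere cohesion, was 2.38 higher and Cenpa, the centromere histone, 1.82 higher, with bone second to heart in all 3. Cks2, a subunit of cyclin-dependent kinases, was lower at -5.69 and -5.56 (difference -1.99, SE 0.24).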

How the data were processed

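Total RNA of each tissue (Cy3) and the reference RNA (Cy5) were hybridised by the authors to 30 two-colour arrays, all in 1 dye orientation, and the deposited spot files hold scanner intensities of Agilent Feature Extraction 9.5.1.1 per the file headers. Of 42,006 probes, 25,030 are in the authors' value table, whose log10 values are the authors' tissue levels adjusted for variation of the reference. It was used to choose probes and as an alternative. Outlier spots (0.0377%) were left out, intensities were corrected by normexp (offset 50) and each array was normalised by loess, which can pull a broad one-sided shift towards 0. In limma 3.58.1 (R 4.3.3), 1 coefficient per tissue was fitted to log2(Cy3/Cy5) over 30 arrays (15 residual and 2.95 prior degrees of freedom, prior SD 0.219), and p-values were adjusted by the Benjamini-Hochberg method over 21,019 probes that passed the filter on background. The number of arrays limits the precision. The fit was run on simulated data with independent noise on each array and no effect of slide or day. Such data cannot show how the calls hold where arrays share a slide. For a probe not well above background on either heart array, the bound is the Cy3 mean of the other tissues over the higher of the array's lowest detected signal and the probe's own. It has no error attached and was not tested, so it is not a confidence limit. Symbols came from the study's supplementary probe lists, of which 3,167 were current, 1,535 were synonyms and 347 were not found in the RefSeq table. Where a symbol had several probes, the one with the highest Cy3 level was used. The comparison, the lists and the named genes were chosen with earlier results of these data known. Alternatives were another background correction and centring, other filters, the value table, blocks for slide, scan day and replicate, array weights, and leaving out single arrays or tissues. A few genes that the rule names are not reported here.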

Additional observations from a re-analysis of the deposited data

Results flagged for a closer look

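The array holds probes that are not in the authors' value table and that entered none of the counts above, although further probes of single genes were set beside their values. Of 13,618 such probes tested, 335 (2.46%) were at least 4-fold higher in heart than in the mean of the other tissues, beside 3.01% of the probes in the table, and 1,043 were higher and 646 lower by at least 1 in log2. They are given because the signal lies outside the main measurement. Among them were 13 further probes of the named genes, which were on the same side of the threshold for Acss1, Cmss1, Abhd18 and Acat1, among others, and not called for Abcc8 (differences of 0.18 and 0.57 beside 3.10 for the probe in the table), Adrb1 (0.49 beside 3.15), Adcy4 (-0.04 beside 1.33), Vat1l (-0.15 beside -3.19), Adcy2 (-0.61 beside -1.75), Abhd5 (0.49 beside 1.1) and Acadsb (0.79 beside 1.02). Which part of each transcript these probes read was not tested. With 2 arrays per tissue, single arrays were not tested for lying apart from their group.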

How the results depend on the processing

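Of the 177 genes that the naming rule gave, none changed its direction, and 148 of the 171 called ones kept their call in every setting. Uncalled list members were not followed in this way. On all probes of the array, 3,076 were higher in heart, 967 of them at least 4-fold, and 2,013 were lower than in skeletal muscle. With the scanner software's processed signals 968 were at least 4-fold higher, 2,968 lower and 1,089 at least 4-fold lower, and with the value table the counts were 991, 2,942 and 1,028. Median centring of each array gave 403 at least 4-fold higher, and 1,036 higher and 1,313 lower than in muscle, and within the scan day 685 were at least 4-fold lower. With the slide as a random block 1,824 were higher and 1,458 lower, and 1,292 were higher and 924 lower than in muscle. The share of higher among 4-fold calls was 60.1% in the main setting, 51.8% with median centring, 47.1% with processed signals and 49.1% with the value table. The median difference over all probes was -0.09 in the main setting and -0.14, -0.15 and -0.12 in these, so that directions are relative to it. Median centring left 5 adrenergic genes and 3 endothelial markers higher, and 5 epithelial markers and 0 cytosolic ribosomal genes lower. Processed signals and the value table gave 5 skeletal muscle markers higher each, and with the value table there were 4 blood and immune markers. Without either heart array in turn, 1,878 to 1,974 probes were higher, 1,519 to 1,680 lower, 609 to 663 at least 4-fold higher and 380 to 436 at least 4-fold lower, 1,537 to 1,600 were higher and 1,066 to 1,081 lower than in muscle. In the same fits 0 to 1 cytosolic ribosomal genes, 3 to 4 liver and kidney markers and 5 to 6 epithelial markers were lower. The cause of these shifts was not tested. Replicate numbers do not pair the arrays (median r 0.0474 over 105 pairs of tissues, from -0.246 to 0.342, with 33 over 0.1), and with the replicate block 2,037 were higher and 1,931 lower with no named call changed. Each tissue has 2 arrays, and signals near background limit what could be read among the genes low in heart.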
